A study of Mus musculus with 714 samples.

Results

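Aldh1a1 (aldehyde dehydrogenase 1 family member A1) was counted in 63 uterine epithelial cells taken from mice at postnatal day 7 (pnd7), which is 23.6% of the cells of that age, and the others held 0 counts of it. They are called Aldh1a1-positive and Aldh1a1-negative cells. The age falls into 3 blocks of cell numbers, in which 20 of 88, 12 of 87 and 31 of 92 cells were positive and 68, 75 and 61 were negative. The classes were chosen by their measured Aldh1a1 counts, so the levels of Aldh1a1 are given as a description, and every comparison concerns other genes. The cells belong to a series of 714 cells from ICR mice, an outbred strain, at 5 ages, pnd0, pnd7, pnd14, pnd28 and pnd56. All were sorted on CD326 (EpCAM), a surface protein of epithelia. No genotype, treatment, animal or litter is named in the labels, nor whether animals were pooled. Every cell was made into a CEL-seq library, in which the RNA of a single cell is amplified by in vitro transcription and read near the 3′ end of each transcript.

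Because no label separates animals, pnd7 counts as 1 sample and its cells are not replicates. No p-value was computed, and there is no replicate check on any difference. Intervals in square brackets are exact 95% intervals of counting error only, which leave out the spread from cell to cell. Ratios are log2 of the level in positive cells over that in negative cells. Totals per pnd7 cell ran from 950 to 9332 counts with a median of 2492. The cell numbers fall into blocks of 96, called runs here, of which runs 5, 6 and 10 hold the pnd7 cells, and the labels do not say what a run is.

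Aldh1a1 is one of the enzymes that oxidise retinaldehyde to retinoic acid, the ligand of the nuclear retinoic acid receptors. Stra6 imports retinol into cells, Crabp1 and Crabp2 bind retinoic acid inside them, Rdh10 forms retinaldehyde and Dhrs3 reduces it back to retinol. Retinoid signalling takes part in patterning the female reproductive tract, and Aldh1a1 also serves as a marker of progenitor cells in several epithelia. In the mouse the uterine epithelium of the first postnatal week is a simple layer from which glands have yet to form or are just starting to bud.

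Which gene a count belongs to bears on the rule, since the mouse has a close relative of Aldh1a1, Aldh1a7, for which the table has no row. Their coding sequences in GENCODE M21 (build GRCm38) both span 1503 bases and are 91.6% identical. The last 60 coding bases, the coding stretch nearest to the end that CEL-seq reads, differ at 4 positions, shown in capitals.
Aldh1a1: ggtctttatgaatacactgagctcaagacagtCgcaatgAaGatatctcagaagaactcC
Aldh1a7: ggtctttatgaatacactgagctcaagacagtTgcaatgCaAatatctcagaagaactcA
The sources used here do not say how reads of this pair were assigned. The annotated span of Aldh1a1 also overlaps C730002L08Rik and Gm6684 on the other strand.

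The positive cells of runs 5, 6 and 10 held 39, 27 and 60 Aldh1a1 counts, and pnd7 as a whole stood at 171.9 counts per 1000000 (CPM) [143.2, 204.7]. A single count made 32 of the 63 cells positive, 13 cells had 2 counts, 10 had 3, 5 had 4, and 1 cell each had 5, 6 and 7. The cells just inside the rule, with 1 count, had a median total of 2570 counts, against 2449 in the cells just outside it, with 0. Detection moved with depth. Among cells ordered by total counts, 10 of the 67 shallowest were positive (14.9%), 16 of the next 67, 15 of the next 66 and 22 of the 67 deepest (32.8%). It also differed between runs, with 22.7% of cells in run 5, 13.8% in run 6 and 33.7% in run 10. After each cell had been thinned at random to 1500 counts of all genes, Aldh1a1 included, 15.7% [11.5, 20.8] of the remaining cells were positive. This draw was separate from the one used to compare the classes. Of the 61 positive cells deep enough for this, 21 were left with 0 counts, so a cell of the same kind can fall in either class by sampling alone.

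**Figure D1:**
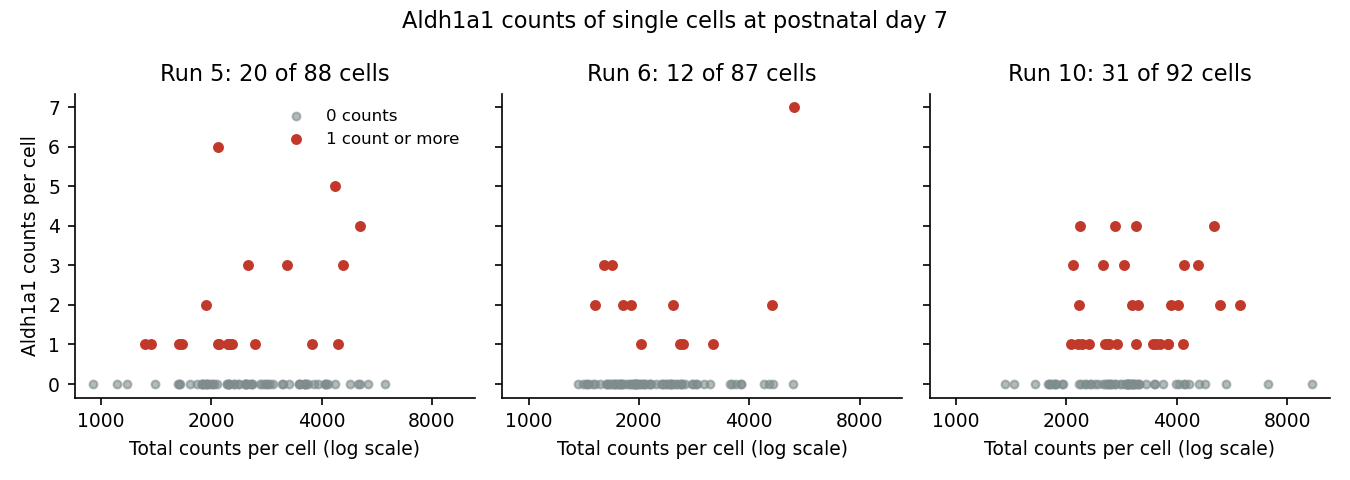
Each point is 1 cell at postnatal day 7, with its total counts on a log scale across and its Aldh1a1 counts upward, in 1 panel per run. Positive cells (red) are 20 of 88 in run 5, 12 of 87 in run 6 and 31 of 92 in run 10, and most hold 1 or 2 counts.

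To take depth out of the comparison, the classes were compared at 1500 counts per cell, which left out 2 positive and 11 negative cells. Median totals over all positive and negative cells were 2608 and 2449 before thinning. A second comparison paired each positive cell with the negative cell of the same run nearest in total counts, giving medians of 2608 and 2605. At equal depth the median number of genes per cell was 43 higher in positive cells. This difference was not present within runs, where it was −16.5 in run 5, 14 in run 6 and −18 in run 10. Values within runs are given for the genes and lists described at length.

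The epithelial identity of the classes was alike in the genes that define it. Krt18, a keratin of simple epithelia, was counted in 98.4% of positive and 97.9% of negative cells, at 4776 and 5081 CPM, with a log2 ratio of −0.09 [−0.25, 0.07]. Epcam, the gene of the sorting antigen, stood at −0.19 [−0.89, 0.47] with run values of −0.21, 0.76 and −0.77, and Wnt7a, a Wnt ligand of the uterine epithelium, at −0.03 [−0.71, 0.61]. The 9 measured luminal epithelium markers of 24 listed had a median of −0.03, and the 19 measured keratin and junction genes had one of −0.04. Over all 3421 genes with at least 20 counts, the level needed for a list member to count as measured, the median was −0.05.

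Few genes stood far apart between the classes. Of 1677 genes with at least 50 thinned counts, 18 (1.07%) were at least 2-fold higher in positive cells and 75 (4.47%) at least 2-fold lower. The excess of lower genes was absent from the depth-matched classes of equal size, where 38 genes (2.34%) were higher and 43 (2.65%) lower of 1625. A rule chose the genes to be named from those with at least 50 counts. It asked for the same direction in all 3 runs, with all counts and in the matched cells, for detection in 10% or more of the higher class, and for no single cell with over 1/3 of that class's counts. The rule was met by 9.06% of these genes above and 13% below, and the 15 and 12 with the interval bound farthest from 0 were named. The rule thus fixes the direction of the named genes across runs and also selects for large ratios in the thinned cells, so these ratios are descriptions, and the plot of the named genes shows the values with all counts beside them. The plot of ratio against level shows the spread narrowing with level. Above 1000 CPM, the histone pair Hist1h2ao and Hist1h2ap lay farthest from 0.

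**Figure D2:**
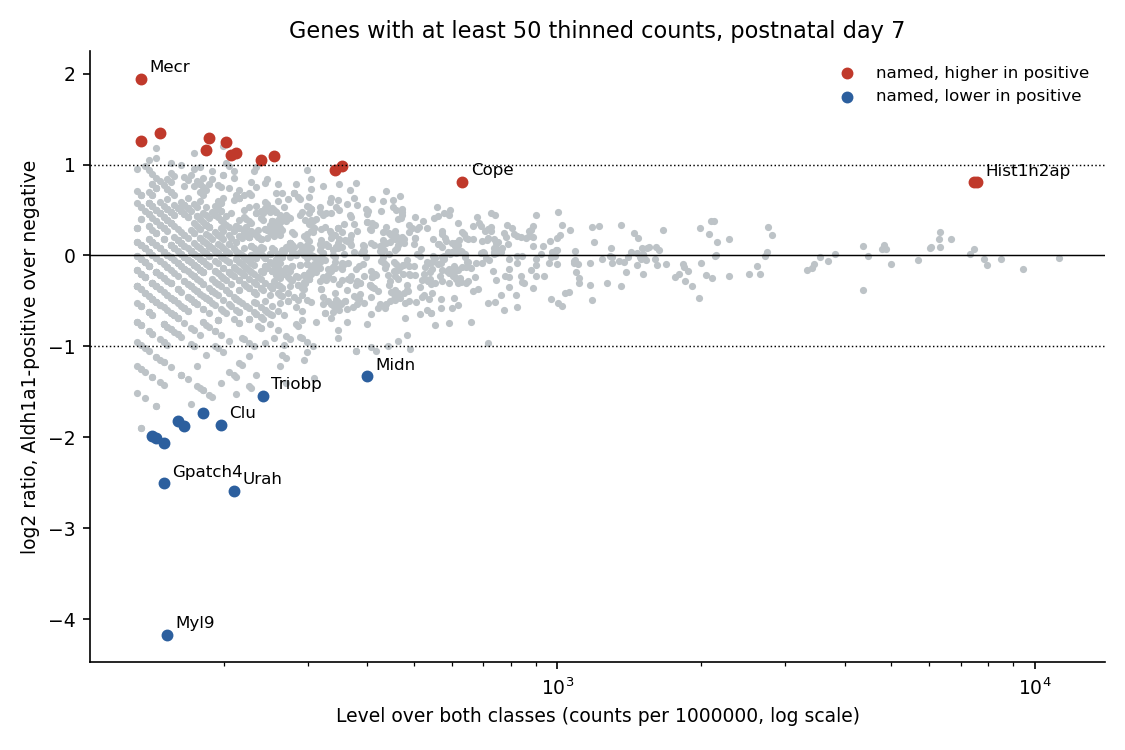
Each point is 1 of the 1677 genes with at least 50 thinned counts, with its level over both classes on a log scale across and the log2 ratio of positive over negative cells upward. Dotted lines mark 2-fold, red and blue points are the 15 higher and 12 lower named genes, and Hist1h2ap lies at 0.81 among the most abundant genes.

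Histone genes had the highest median among the lists with at least 5 measured members, and this group was chosen after its values were seen. They encode the proteins on which DNA is wound, most are transcribed while DNA is replicated, and most of their transcripts lack the poly(A) tail that CEL-seq primes on. Of 66 histone rows, 22 were measured, and 21 of these were higher in positive cells, against 45.7% of all genes with at least 20 counts. Their median log2 ratio was 0.71, and they made up 2.75% of the counts of positive cells and 1.60% of those of negative cells. Without Hist1h2ao and Hist1h2ap, read below as 1 measurement, 19 of 20 measured genes were higher, with a median of 0.66. The shares of counts were then 0.52% and 0.33%. For the 22 measured genes the median was 0.92, 0.54 and 0.16 in runs 5, 6 and 10, so run 10 lay nearest to 0. It was 0.55 with all counts, 0.68 in the matched cells and 0.57 with the runs weighted as strata. All 13 measured H2A genes and all 3 linker histone genes were higher, as were 5 of 6 H2B genes, and no H3 or H4 gene reached 20 counts.

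The most abundant members were Hist1h2ao and Hist1h2ap, both genes of histone H2A. Their coding sequences of 390 bases are identical in GENCODE M21, and their counts were nearly equal, so the 2 rows are read as 1 measurement. Bases beyond the coding sequence were not compared, and the sources used here do not say how reads of the pair were assigned. The last 60 coding bases are given.
Hist1h2ao: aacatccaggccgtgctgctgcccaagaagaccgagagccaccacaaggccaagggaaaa
Hist1h2ap: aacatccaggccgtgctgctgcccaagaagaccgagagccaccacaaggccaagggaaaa
In the table the pair had 7116 and 7105 counts over the pnd7 cells, and their counts were unequal in 6 cells. Other H2A genes are close copies as well, so the values of single members are uncertain.

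Hist1h2ap stood at 16630 CPM in positive and 8573 CPM in negative cells of run 5, at 5389 and 2629 CPM in run 6, and at 10366 and 8542 CPM in run 10. The log2 ratios were 0.96, 1.04 and 0.28, so run 10 showed the smallest difference, and run 6 was low in both classes. Over the runs the ratio was 0.81 [0.70, 0.92], and it was 0.56 with all counts, 0.44 in the depth-matched cells and 0.64 with the runs weighted as strata. Among the less abundant members, Hist1h2bn stood at 2.05 [1.05, 3.09], Hist1h2ad at 1.09 [0.46, 1.70] and Hist1h2ab at 1.05 [0.40, 1.68].

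The histone counts lay in few cells. Summed over all histone rows, positive cells held between 0 and 349 of their 1500 counts with a median of 14, and negative cells between 0 and 343 with a median of 9. These sums, and the shares and tallies that follow, hold both Hist1h2ao and Hist1h2ap. Without the pair the highest sums were 74 in positive and 62 in negative cells, with medians of 2 and 1. The 5 highest positive cells carried 57.5% of the histone counts of their class, and the 5 highest negative cells 29.6% of theirs. The positive class has fewer cells, so 5 cells are a larger part of it. These shares therefore cannot show whether histone counts were more concentrated in positive than in negative cells. More than 50 histone counts were found in 8 positive cells (13.1%) and 19 negative cells (9.84%). Medians of positive and negative cells were 16.5 and 12.5 in run 5, 10 and 4 in run 6, and 15 and 14 in run 10. The intervals of the pooled ratios do not include this spread, and the classes overlapped over nearly their whole range. Other genes of the dividing cell had smaller medians than the histone genes. The 20 measured genes of S phase, when DNA is copied, had a median of 0.02 with 10 higher (50%). The 16 measured genes of G2 and M phase had one of 0.21 with 10 higher (62.5%). Over all genes with at least 20 counts the share higher was 45.7%. The G2 and M median was 0.19, −0.28 and 0.51 in runs 5, 6 and 10, and −0.21 without run 10. Over members with at least 50 counts it was 0.57 for G2 and M phase and −0.28 for S phase. Whether the histone values go with cell division was not tested.

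Beyond the histones, the genes named by rule and higher in positive cells had varied functions. Mecr, an enzyme of mitochondrial fatty acid synthesis, came first among the 15 named, with 306 CPM in positive and 79.4 CPM in negative cells. Its run levels were 370.4, 333.3 and 258.1 CPM in positive cells of runs 5, 6 and 10 against 52.1, 66.7 and 124.3 CPM in negative cells. Every positive run lay above every negative run, as was so for 3.13% of the genes with at least 20 counts, and 7.54% had every positive run below. Its ratio was 1.95 [1.10, 2.81] thinned, 1.69 with all counts and 1.11 in the matched cells, yet it was counted in only 14.8% of positive and 7.77% of negative cells, and 1 cell held 32.1% of its counts in the positive class.

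Csdc2 and Cope were higher in positive cells and were found in larger shares of them. Csdc2, an RNA-binding protein with a cold shock domain, was counted in 39.3% of positive and 22.3% of negative cells, with a ratio of 0.94 [0.39, 1.47] and run values of 0.59, 1.3 and 1.05. Cope, a subunit of the COPI coat of Golgi vesicles, was counted in 59% and 43%, with 0.81 [0.41, 1.20]. In the matched cells the ratios of these genes were 0.53 and 0.68.

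Fgfr2, the epithelial receptor for fibroblast growth factors, stood at 316.9 CPM in positive and 141.6 CPM in negative cells. Its ratio was 1.16 [0.42, 1.88], with 1.83, 1.08 and 0.39 in runs 5, 6 and 10. Srp19, a protein of the signal recognition particle, was at 1.29 [0.57, 2.01] and was counted in 34.4% of positive and 15% of negative cells. Srp19 was at 0.69 with all counts, and Cope and Fgfr2 were at 0.56 and 0.94. Lrrc59, a protein of the endoplasmic reticulum membrane, was at 1.12 thinned and 0.77 with all counts, with 2.09, 1.41 and 0.39 in runs 5, 6 and 10. Ncbp2, a subunit of the nuclear cap-binding complex, was at 1.11 thinned, 0.59 with all counts and 0.42 in the matched cells, and it changed direction, to −0.094, when cells were thinned to 2500 counts. Champ1, a chromosome alignment protein, was at 1.35 thinned, 0.62 with all counts, 0.54 in the matched cells and 0.12 thinned to 2500. Echdc2, an enoyl-CoA hydratase domain protein, was at 1.26 thinned and 0.88 with all counts, with 0.15 in run 10. Tor1b, an ATPase of the endoplasmic reticulum, was at 1.25 but owed this to run 5, where it was at 3.05 against 0.22 in run 6 and 0.67 in run 10, and it was at 0.10 in the matched cells. Without the single cell of highest count, 2 of the 15 genes were at least 2-fold higher, compared with 10 with it. The number was 1 with all counts, 6 in the matched cells and 2 thinned to 2500. Champ1 and Fgfr2 overlap annotated genes on the same strand and Lrrc59 and Ncbp2 on the other, and whether counting used the strand is not known from the sources used here.

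**Figure D3:**
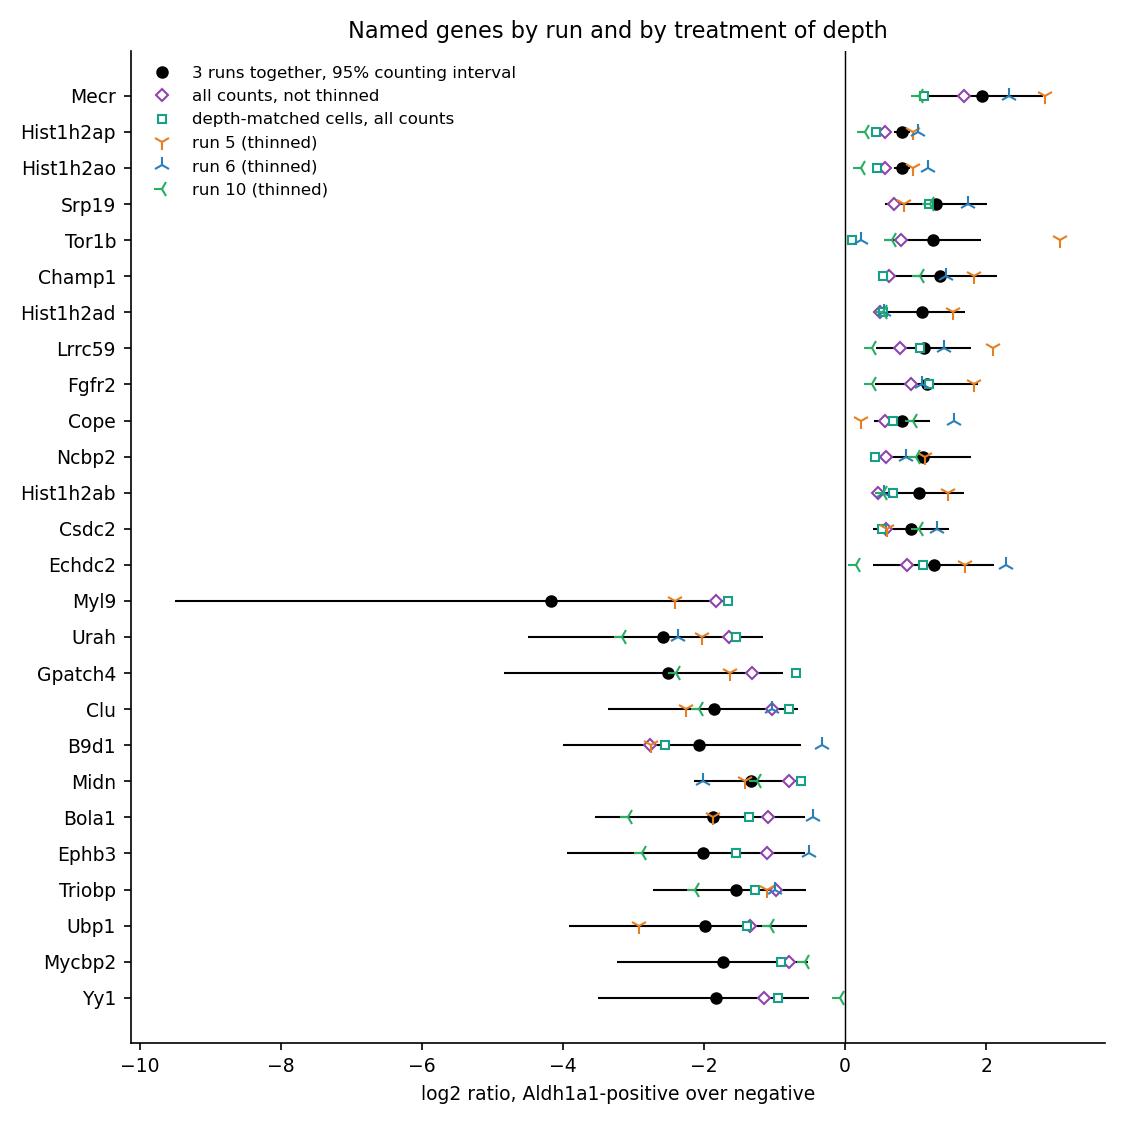
For each named gene reported here, the black point and bar give the log2 ratio over the 3 runs with its 95% counting interval, the open marks give all counts and the depth-matched cells, and the coloured marks give single runs, left out where a class had 0 counts. Ratios of the lower genes are nearer to 0 with all counts than thinned for 11 of the 12, with B9d1 as the exception.

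Genes named as lower in positive cells were scarce, counted in 1.64% to 24.6% of positive cells and in 14.0% to 39.4% of negative cells. Their thinned counts in the positive class ran from 1 to 17, so 1 random draw weighs on each ratio, and values with all counts are given beside them. Myl9, a myosin light chain of contractile cells, stood at 53.7 CPM in positive and 190.3 CPM in negative cells, from 4 positive and 38 negative cells, a log2 ratio of −1.83 [−2.93, −0.89]. Thinned, it had 1 count in positive cells, in run 5, and 19, 18 and 20 counts in negative cells of runs 5, 6 and 10, a ratio of −4.17 [−9.50, −1.64]. Urah, a hydrolase of uric acid breakdown, stood at 80.5 and 252.5 CPM, from 8 positive and 59 negative cells, a ratio of −1.65 [−2.52, −0.88]. Clu, the secreted chaperone clusterin, stood at 107.4 and 219.5 CPM, from 8 positive and 47 negative cells, a ratio of −1.03 [−1.79, −0.34].

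Midn, a nuclear protein that takes proteins to the proteasome, was the best measured of the lower genes, with 185.8 CPM in positive and 466.3 CPM in negative cells. Its levels were 148.2, 111.1 and 236.6 CPM in positive cells of runs 5, 6 and 10 against 395.8, 447.6 and 564.97 CPM in negative cells. The classes did not overlap, as was so for 7.54% of the genes with at least 20 counts. The naming rule had already fixed the direction of Midn in every run. Its ratio was −1.33 [−2.15, −0.60] thinned, −0.80 with all counts and −0.63 in the matched cells. Ephb3, a receptor for ephrins, was at −1.11 with all counts and −2.01 thinned. Triobp, an actin-binding protein, was at −0.98 and −1.54. Yy1, a zinc finger transcription factor, was at −1.15 and −1.82, with 0 counts in positive cells of 2 runs and −0.07 in run 10. B9d1, a protein of the ciliary transition zone, was at −2.77 and −2.07. Gpatch4, Bola1, Ubp1 and Mycbp2 lay between −0.80 and −1.35 with all counts and between −1.73 and −2.51 thinned, and Gpatch4 was at −0.70 in the matched cells. All 12 were at least 2-fold lower thinned, compared with 9 with all counts and 7 in the matched cells.

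The levels in cells with 1 and with 2 or more Aldh1a1 counts were set against those in negative cells. All 15 higher genes stood above the negative cells in the 30 thinned cells with 1 count, and 14 did so in the 31 with 2 or more. Tor1b was the exception at 86 against 151.99 CPM. Of the 15, 9 were higher with 2 or more counts than with 1. Hist1h2ap had 6408 CPM with 0 counts of Aldh1a1, 9289 CPM with 1 and 13118 CPM with 2 or more, and Mecr had 79.4, 200 and 408.6 CPM. All 12 lower genes lay below the negative cells in both groups, and 6 were lower with 2 or more counts than with 1. The genes were named on these same cells, so their position against the negative cells was largely fixed by the choice, and the tallies support nothing.

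Among the lists with at least 5 measured members, MHC and interferon genes had the lowest median. They serve antigen presentation and the response to interferons. Of 36 listed genes 12 were measured, and 2 were higher in positive cells (16.7%), beside 45.7% of all genes with at least 20 counts. Of the 12, 4 were at least 2-fold lower and 1 at least 2-fold higher, beside 10.5% and 4.91% of all those genes. The median log2 ratio was −0.95, with −0.93, −0.70 and −0.37 in runs 5, 6 and 10, and −0.67 in the matched cells for the same members. It was −0.56 with all counts, −0.66 in another thinning draw and −0.28 thinned to 2500. The sum of the list was nearer to 0, at −0.24 [−0.35, −0.13]. Ifitm1, an interferon-induced membrane protein with 7519 and 8079 CPM, made up most of the list's counts and stood at −0.10. In run 6 the sum was higher in positive cells, at 1.41% of counts against 1.20%. Runs 5 and 10 had it lower, at 0.79% against 1.09% and 0.79% against 0.92%.

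H2-D1, a classical MHC class I heavy chain, stood at 222.2, 277.8 and 215.05 CPM in positive cells of runs 5, 6 and 10 and at 416.7, 533.3 and 474.6 CPM in negative cells. All 3 positive values lay below all 3 negative values, as was so for 7.54% of the genes with at least 20 counts. The ratio was −1.05 [−1.79, −0.39], −0.97 [−1.48, −0.49] with all counts and −1.04 in the matched cells. H2-D1 was counted in 29.5% of positive and 40.4% of negative cells.

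Irf1, a transcription factor of the interferon response, had 370.4, 444.4 and 430.1 CPM in positive cells of the 3 runs. Negative cells had 718.8, 619.05 and 1141.2 CPM, again without overlap, as in 7.54% of the genes with at least 20 counts. The ratio of Irf1 was −0.97 [−1.5, −0.47], and it was −0.74 in the matched cells. Among the scarcer members, B2m, the light chain of MHC class I, had 16 counts against 84 with all counts, a ratio of −0.84 [−1.71, −0.06]. Psmb8, an immunoproteasome subunit, was at −0.95 [−1.82, −0.18], and Cd74, which chaperones MHC class II molecules, at −1.62 [−3.31, −0.29] from 5 and 45 counts. Rtp4, induced by interferon, went the other way at 1.08 [−0.42, 2.49], and Tap1, a peptide transporter, stood at 0.34 [−1.05, 1.58]. Markers of immune cells summed to 7 counts in positive and 33 in negative cells, a ratio of −0.58 [−2.00, 0.63], with Ptprc at 0 in both.

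Genes of ion, water and solute transport stood higher in positive cells. Such genes set the amount and salt content of the fluid in the uterine lumen. Of 40 listed genes 11 were measured, 9 were higher and 3 at least 2-fold higher, beside 45.7% and 4.91% of all genes with at least 20 counts. The median log2 ratio was 0.66, or 0.75 in the matched cells. Run medians were 0.53, 0.70 and −0.21, so the median of run 10 did not share the direction. The sum of the list stood at 0.44 [0.21, 0.66]. It was higher in positive cells of every run, with 0.23% against 0.17% of counts in run 10. Thinned to 1000 counts per cell the median was 0.06, and over members with at least 50 counts it was 0.13.

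Cftr, the chloride channel of the apical membrane, was the member with the largest ratio and the same direction in every run. It had 148.2, 277.8 and 193.5 CPM in positive cells of runs 5, 6 and 10 and 31.2, 47.6 and 45.2 CPM in negative cells. Every positive value exceeded every negative value, as was so for 3.13% of the genes with at least 20 counts. The ratio of Cftr was 2.25 [1.11, 3.43]. These levels rest on 18 counts in 10 positive cells (16.4%) and 12 counts in 12 negative cells (6.22%). With all counts the figures were 33 in 13 cells and 24 in 22 cells, a ratio of 2.01 [1.21, 2.84], and the matched cells gave 2.21.

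Other transport genes were less even. Scnn1a encodes the alpha subunit of an epithelial sodium channel and was at 1.31 [0.33, 2.26], with 3.25 and 1.74 in runs 5 and 6 and −0.66 in run 10. Car2, a carbonic anhydrase, was at 0.84 [0.19, 1.47] and owed this to run 10, where it was at 1.31 against −0.04 and −0.63. Slc9a3r1, a scaffold protein of the apical membrane, stood at −0.46 [−1.02, 0.06].

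**Figure D4:**
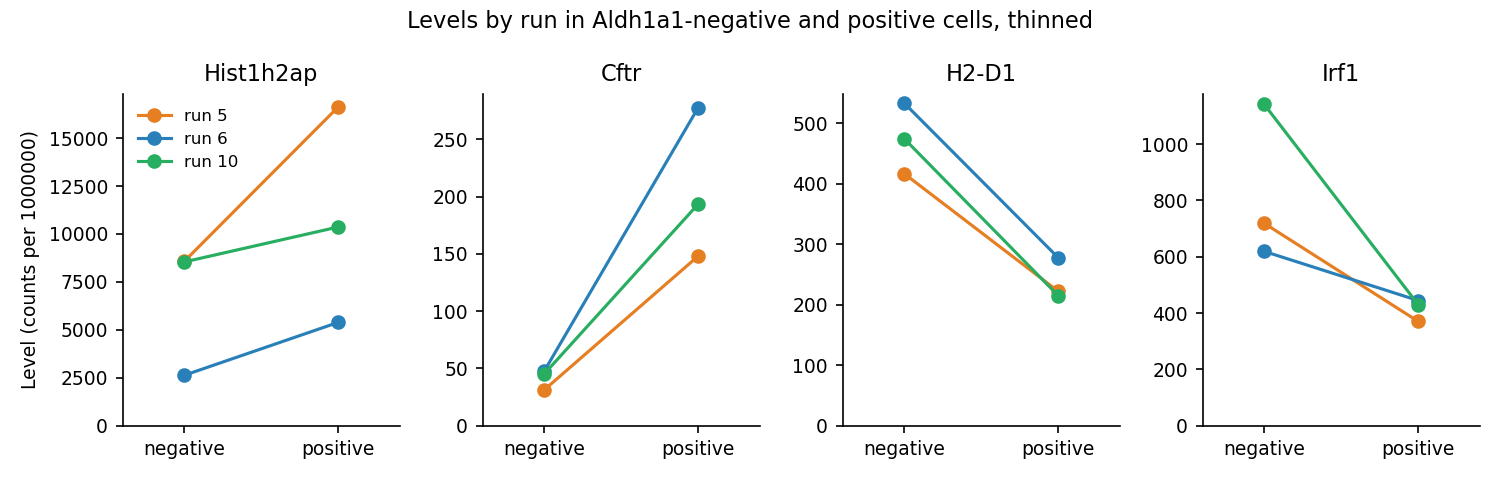
Levels in counts per 1000000 at 1500 counts per cell for Hist1h2ap, Cftr, H2-D1 and Irf1, with negative and positive cells of each run joined by a line. Cftr lies higher and H2-D1 and Irf1 lie lower in positive cells of all 3 runs without overlap, whereas Hist1h2ap overlaps between runs. Of the genes with at least 20 counts, 3.13% lay higher and 7.54% lower without overlap.

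The genes around Aldh1a1 in retinoid metabolism showed no shared direction. Of 48 listed genes 35 had a row and 12 were measured, with a median of 0.03 and run medians of −0.68, 0.01 and 0.37. Of the 12 measured, 6 were higher (50%), beside 45.7% of all genes with at least 20 counts. None was 2-fold apart. Aldh1a2 and Aldh1a3, the other retinaldehyde dehydrogenases, had 3 and 2 thinned counts in positive cells, the 3 of Aldh1a2 in 1 cell, and 0 in negative cells. Fabp5, a carrier of fatty acids and retinoic acid, had 0 and 7 counts.

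Stra6, the retinol importer, was the most abundant of them, with 754 CPM in positive and 1109 CPM in negative cells. It was lower in positive cells of run 5 (555.6 against 1302 CPM) and run 6 (777.8 against 1448 CPM) and higher in those of run 10 (860.2 against 497.2 CPM). The pooled ratio of −0.56 [−0.95, −0.18] therefore does not hold within every run. Dhrs3, whose enzyme turns retinaldehyde back to retinol, was at −0.47 [−1.07, 0.08], and Rdh10, which forms retinaldehyde, at 0.58 [−0.74, 1.80]. The carriers Crabp1 and Crabp2 stood at −0.27 [−0.93, 0.34] and −0.07 [−0.89, 0.69], and Crabp2 varied from −1.34 in run 5 to 1.13 in run 6. Among the nuclear receptors, Rara was at 0.57 [−0.42, 1.5], Rxrb at 0.71 [−0.26, 1.62] and Rxra at 0.15 [−0.64, 0.89], and every one of these intervals includes 0.

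The other list of enzymes, for detoxification of aldehydes and other reactive compounds, had 15 measured members and a median of −0.20. Of these 6 were higher (40%), beside 45.7% of all genes with at least 20 counts. Run medians were −0.09, −0.11 and −0.07. The median moved with the setting, to −0.28 thinned to 1000, −0.07 in the matched cells and 0.02 thinned to 2500. With the runs as strata it was 0.02. Aldh7a1, an aldehyde dehydrogenase of lysine breakdown, was at 0.80 [0.14, 1.44], while Gpx4, which reduces lipid peroxides, was at −0.60 [−1.06, −0.16] and Gsta4, a glutathione transferase, at −0.52 [−0.92, −0.14]. Gpx4 stood at −1.31, 0.36 and −0.49 and Gsta4 at −0.85, −0.85 and 0.23 in runs 5, 6 and 10.

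Candidate progenitor genes had a median slightly above the background, and it changed sign between runs. Of 30 listed genes 8 were measured and 5 were higher (62.5%), beside 45.7% of all genes with at least 20 counts. The median was 0.22, beside −0.05 for all those genes, with run medians of 0.01, −0.19 and 0.42. Itgb1, an integrin subunit, was the only one with an interval off 0, at 0.68 [0.03, 1.31], where 6.23% of the genes with at least 20 counts had an interval above 0 and 6.17% one below it. Cd24a and Ly6e, surface proteins, stood at −0.09 and −0.04. Prom1, Lgr5 and Sox9, which mark progenitors in other epithelia, had 0, 1 and 3 thinned counts in positive cells against 5, 8 and 8 in negative cells, too few for a difference to be detectable at this depth.

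Steroid receptors and cofactors had a median of 0.66 over 7 measured genes. Of these 5 were higher (71.4%), beside 45.7% of all genes with at least 20 counts. Esr1, the oestrogen receptor alpha, was at 1.47 [0.55, 2.38], but its run values were −0.17, 2.92 and 0.41, and 1 cell held 33.3% of its 21 counts in the positive class. Pgr, the progesterone receptor, was at 0.66 [−0.77, 1.97] and at −0.61 in the matched cells. The list median was 0.30 in the matched cells and 0.39 with the runs as strata. Run medians were −0.17, 1.54 and −0.24, so runs 5 and 10 did not share the pooled direction.

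Imprinted genes of fetal growth had a median of −0.0012 over 9 genes but spread widely. The median moved with the setting and was −0.43 in another draw, −0.27 with all counts, −0.44 over the members measured in the matched cells and −0.97 thinned to 1000, and it was −0.84 without run 6 and 0.27 without run 5. H19, a long noncoding RNA, was at −1.55 [−2.92, −0.43] with run values of −0.17, −1.63 and −2.62, although 1 negative cell held 30.8% of its counts in that class. Meg3, another noncoding RNA, had 3 counts in positive and 61 in negative cells with all counts, a ratio of −2.79 [−5.11, −1.18]. Grb10, an adaptor that restrains growth signals, stood at 1.66 [0.31, 3.01], in 8 positive cells (13.1%) and 6 negative cells (3.11%). The lists for Wnt signalling, for Notch, Hedgehog, FGF and BMP signalling, for Mullerian patterning, for oxidative phosphorylation, for glycolysis, for lipid synthesis, for oestrogen-responsive genes, for early chromatin genes and for immediate early genes had medians between −0.16 and 0.22. The lowest, that of Wnt signalling, changed sign to 0.20 with all counts, 0.31 in the matched cells and 0.21 thinned to 2500, and was at −0.61 without run 10.

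**Figure D5:**
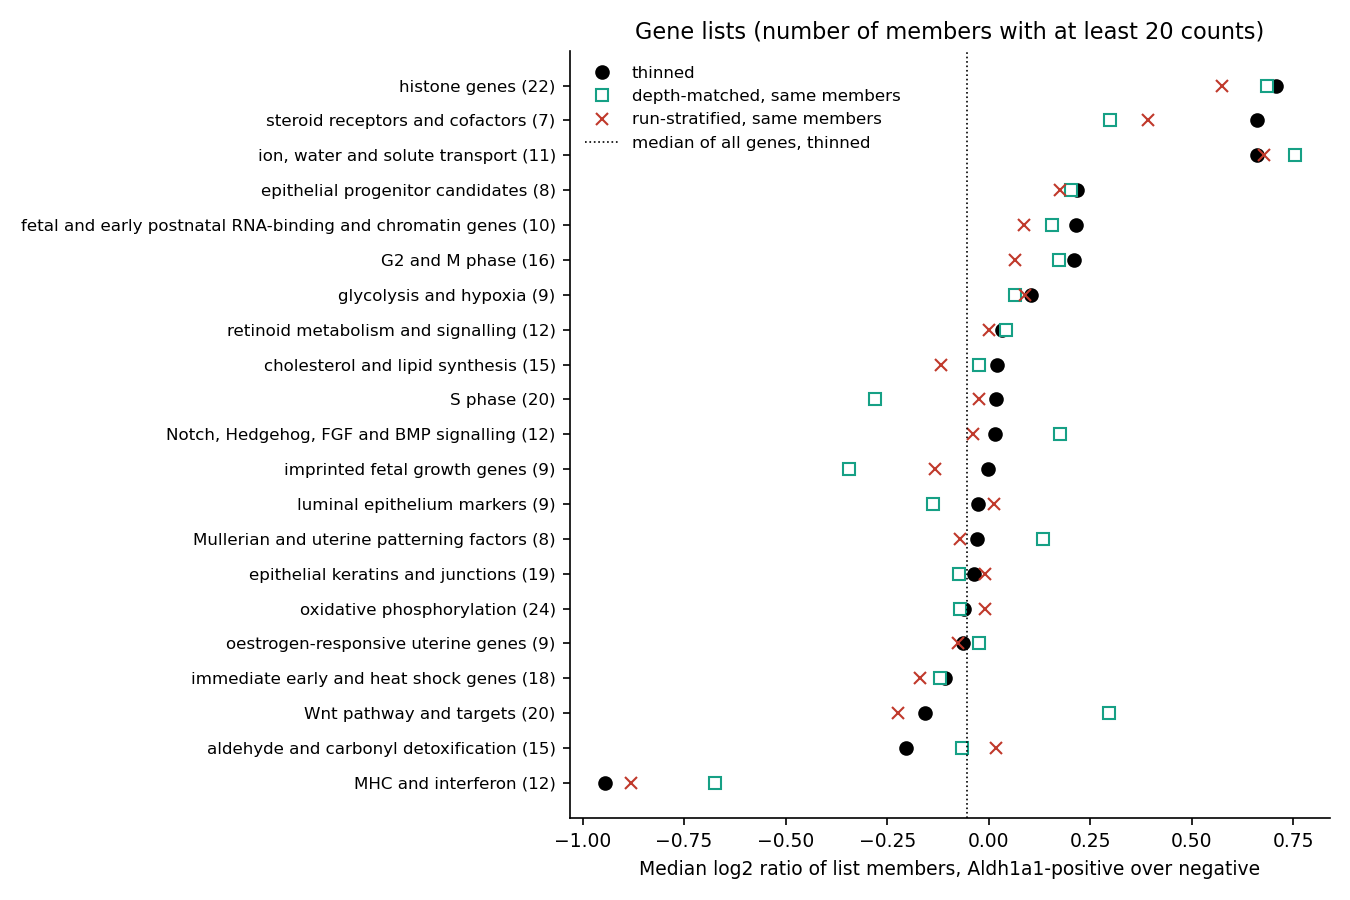
Median log2 ratio of positive over negative cells for each list with at least 5 measured members (their number in brackets), with black points for thinned cells, squares for depth-matched cells and crosses for runs taken as strata. MHC and interferon genes lie lowest at −0.95, histone genes highest at 0.71, and the dotted line is the median of all genes.

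Markers of other cell types were scarce in both classes. Smooth muscle markers summed to 4 thinned counts in positive and 69 in negative cells, of which Myl9 gave 1 and 57, and Acta2, Myh11, Tagln and Actg2 have no row. Glandular epithelium markers summed to 18 and 85 counts, a ratio of −0.58 [−1.40, 0.17], and stroma markers stood at −0.26 [−0.93, 0.37]. Endothelium markers summed to 19 and 79, erythroid markers to 36 and 96, mesothelium markers to 5 and 15, squamous markers to 4 and 21, ciliated markers to 6 and 18, urothelium markers to 2 and 15 and oviduct secretory markers to 15 and 42. The intervals of these 7 sums include 0. Whether the smooth muscle markers have a part in the other differences was not tested.

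Genes whose counts most followed those of Aldh1a1 over the thinned cells had weak correlations. The highest Spearman coefficients among 2231 genes were 0.25 for Casz1, a zinc finger transcription factor, 0.23 for Vps37c, an endosomal sorting protein, and 0.21 for Csdc2, followed by Toporsos and Klhdc2. The lowest were −0.18 for Urah and −0.17 for E2f5 and Crip1. The cells share runs, and correlations of this size in sparse counts are no finding.

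The same split at other ages gave few positive cells, namely 9 at pnd0 (5.20%), 23 at pnd14 (13.3%), 1 of 56 at pnd28 and 1 of 45 at pnd56. Thinning kept 9 at pnd0 and 16 at pnd14, and these cells had no part in naming the genes. Of the 15 genes higher at pnd7, 5 of 15 measured were higher at pnd0 and 6 of 12 at pnd14, where 41.8% and 46.3% of all measured genes were higher. Of the 12 lower genes, 5 of 10 measured were lower at pnd0 and 4 of 7 at pnd14. The small classes limit what could be seen, and no difference from other genes was tested.

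Single genes differed in this respect. Myl9 at pnd14 had 12 thinned counts in positive and 282 in negative cells, a log2 ratio of −1.95. Counts per cell were 0.857 against 2.95 in run 3, 1 against 3.71 in run 4 and 0.625 against 2.56 in run 7, from 7, 1 and 8 positive and 37, 17 and 43 negative cells. The positive counts came from 2, 1 and 1 cells, and single negative cells held up to 41 counts. The smooth muscle markers together stood at −2.09 [−2.98, −1.33] there. Markers of other cell types differed there too, with oviduct secretory markers at −3.65 [−4.98, −2.60], mesothelium markers at −3.38 [−8.70, −0.85], endothelium markers at −1.15 [−2.50, −0.05], stroma markers at −0.99 [−1.97, −0.14] and immune cell markers at 2.48 [1.22, 3.73] from 12 and 13 counts. Erythroid markers had 0 and 28 counts there. The part of these cell types in the pnd14 values was not tested. Irf1 was at −1.16 at pnd14 from 4 and 54 counts and at −0.19 at pnd0, whereas H2-D1 was at 0.43 at pnd14 from 14 and 63 counts. Cftr had 0 and 9 counts at pnd0 and 1 and 9 at pnd14. Stra6 stood at 0.85 at pnd0 with 26 counts in positive cells and had 1 and 8 counts at pnd14.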

How the data were processed

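Counts of 12479 gene rows in 714 single cells were analysed, of which 267 are labelled pnd7. Counts were deposited by the authors as whole numbers. The submitters' processing notes list TopHat, Cuffnorm and mm9 but give no role for any of them. The collapsing of molecular identifiers and the removal of doublets are not given in the sources used here, and no doublet caller was run. No columns of cells were identical, and no 2 pnd7 cells had log counts correlated above 0.585. Of the pnd7 cells 204 were negative, 193 of them after thinning, which left 254 cells in all.

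Each cell was thinned once to 1500 counts of genes other than Aldh1a1, and 13 shallower cells were left out. Class sums were divided by the class total and given per 1000000. Ratios carry exact conditional binomial intervals and shares exact Clopper-Pearson intervals, at 95%. Genes needed 50 thinned counts and list members 20. Single comparisons replaced 1 step each: no thinning, matching on depth within runs, thinning to 1000 or 2500 counts, another draw, positive cells from 2 counts, median-of-ratios or TMM scaling (edgeR 4.0.16), leaving out a run, other count minimums, and runs as strata, which was added after the data were seen. Members, the 31 gene lists and the naming rule were chosen with earlier results of these data known. The rule named the 15 higher and 12 lower genes. List members and a fixed set of retinoid, progenitor and epithelial genes are given as well, and some genes are not reported here. Histone genes were chosen as a group after their values were seen. The steps were tested on simulated cells that shared a profile within each class, without runs or added spread between cells. That checks the code and not how well the intervals suit these data. Sequences came from GENCODE M21 (GRCm38), in which 12107 rows matched by name, and 15 of 31 genes checked overlap another gene. Python 3.11.15, numpy 2.4.6, pandas 2.3.3, scipy 1.17.1 and R 4.3.3 were used.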

Additional observations from a re-analysis of the deposited data

Results flagged for a closer look

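At 8 points the same split went in opposite directions in every run of pnd7 and every run of another age. None of these differences between ages was tested, 64 genes and lists were looked at, and no explanation was weighed. The sum of the histone genes stood at a log2 ratio of −1.31 at pnd0 (63 counts in 9 positive cells) and 0.78 at pnd7. Its most abundant rows, Hist1h2ap and Hist1h2ao, were at −1.51 and −1.71 at pnd0 and are 1 measurement. The sum of the transport genes was at −0.67 at pnd0 from 20 counts in positive cells and 0.44 at pnd7. The sum of the detoxification genes was at 0.37 at pnd0 and −0.16 at pnd7. Genes of S phase summed to 0.56 at pnd14 from 52 counts in positive cells and to −0.10 at pnd7. Urah was at 0.52 and Bola1 at 0.46 at pnd0, from 4 and 6 counts in positive cells. The pnd0 classes also differed in erythroid and urothelium markers, and the part of these was not tested.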

How the results depend on the processing

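Of 351 values of named genes under other settings, 322 stayed within the gene's own counting interval, 27 moved outside and 2 changed direction. These intervals are wide for scarce genes, so Myl9 at −1.83 with all counts was scored as kept beside −4.17 thinned. The naming rule had fixed the direction with all counts and in the matched cells. Of 294 list medians, 42 moved by more than the standard deviation of the 3 run medians. A change of sign was not scored for lists, so these tallies are no measure of stability. The changes of direction among named genes were Tor1b, at −0.82 with positive cells from 2 counts, and Ncbp2, at −0.094 thinned to 2500. Stra6 stood at 0.022 thinned to 2500. The 1.07% of genes (18) higher and 4.47% (75) lower by 2-fold became 1.74% (50) and 4.52% (130) with all counts, 2.34% (38) and 2.65% (43) in the matched cells, and 2.04% (30) and 8.93% with positive cells from 2 counts. They were 4.91% and 10.5% (360) at a minimum of 20 counts, 0% (0) and 1.81% (13) at 100 and 17.6% (1678) and 34.6% (3300) with no minimum. The lower share was 3.51% (40) thinned to 1000 and 2.89% (32) without run 6, and the higher share was 3.37% (35) without run 10. Detection was 11.7% thinned to 1000, 15.7% thinned to 1500 and 18.3% without run 10. The difference in genes per cell was 17 without run 6 and −3 without run 10. The median of MHC and interferon genes ranged from −1.04 (TMM) to −0.28 (thinned to 2500). Scaling by median of ratios or TMM shifted all ratios by 0.04 and −0.10. Depth limits these results, since few genes reach 50 counts in 61 cells. No paired analysis was possible because the labels number cells only in order, and these numbers pair no positive cell with a negative one.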
